A study of Mus musculus with 2 samples.

Results

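The genes described here are 8 regional markers of the small intestine, 4 of the duodenum (Gata4, Cybrd1, Slc40a1 and S100g) and 4 of the ileum (Fabp6, Slc10a2, Slc51a and Slc51b), chosen by name out of 31053 gene symbols in the count tables. Both libraries hold a row for each of the 8. The question put to them is whether both libraries hold the same stretch of the intestine, since an uneven sampling of duodenum and ileum would show in these genes.

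The cells came from the small intestine of 1 Tg mouse (genotype Mdm2+/- Cag-CreERTg) and 1 FMTg mouse (genotype Mdm2FM/- Cag-CreERTg), both C57BL/6j and 60 days old. Both animals had a single injection of tamoxifen, 6 mg per 40 g of body weight, 24 hours before the tissue was taken, so the controls carry the same tamoxifen-inducible Cre, the CAG-driven form that acts across cell types, and 1 null Mdm2 allele as well. Mdm2 encodes the ubiquitin ligase that restrains p53. Each group is 1 library, so the differences below lack a replicate check and no test was possible. Intervals, all at 95%, reflect the error of counting and nothing else.

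Absorption is divided along the small intestine. Duodenal enterocytes take up iron and calcium: Cybrd1 (duodenal cytochrome b) reduces ferric iron at the brush border, Slc40a1 (ferroportin) exports iron to the blood, S100g (calbindin-D9k) carries calcium across the cell under control of vitamin D, and the transcription factor Gata4 maintains proximal identity and holds ileal genes off. Ileal enterocytes recover bile acids: Slc10a2 (ASBT) takes them up, Fabp6 binds them in the cytosol, and the paired subunits encoded by Slc51a and Slc51b (OSTα and OSTβ) release them to the blood. Of the ileal genes, Slc10a2 and Fabp6 are the more strictly ileal, whereas Slc51a and Slc51b are known to be present at lower levels further up the intestine.

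The genes lie apart in the genome. In GRCm38, the build to which mm10 corresponds, GENCODE vM21 places Slc40a1 at chr1:45908068-45926523 on the minus strand and Cybrd1 at chr2:71117923-71142926 on the plus strand. Slc10a2 lies at chr8:5083219-5105351, Slc51b at chr9:65412714-65422955 and Fabp6 at chr11:43596049-43601540, all on the minus strand. Gata4 lies at chr14:63198922-63271692, Slc51a at chr16:32474504-32487879 and S100g at chrX:162961992-162964599, again on the minus strand. Exons of Slc51a overlap Pcyt1a and exons of Slc51b overlap Rasl12, each on the opposite strand, and S100g overlaps Ctps2 on the opposite strand with no shared exon. The sources used here do not say whether the counting used strand, so reads of these pairs may not be fully separated.

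Promoter sequences from RefSeq (GRCm38.p6, 250 bases before to 50 after the start of the gene) were matched for 6 of the 8 genes. The following 3 are shown because the results turn on them: S100g, the duodenal gene with the largest deficit in FMTg, Cybrd1, the duodenal gene with the largest excess, and Fabp6, which was close to absent from both libraries. Capitals mark matches on either strand to a GATA motif (AGATAA), a CDX motif (TTTAT), the hypoxia response core (ACGTG) or a nuclear receptor half-site (AGGTCA).
S100g, chrX:162964550-162964849, minus strand: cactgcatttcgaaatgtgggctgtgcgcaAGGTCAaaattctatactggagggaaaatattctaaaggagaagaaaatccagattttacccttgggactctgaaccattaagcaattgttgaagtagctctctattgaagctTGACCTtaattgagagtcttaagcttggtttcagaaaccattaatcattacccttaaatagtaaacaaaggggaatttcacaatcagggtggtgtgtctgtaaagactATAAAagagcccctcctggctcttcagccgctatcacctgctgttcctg
Cybrd1, chr2:71117804-71118103, plus strand: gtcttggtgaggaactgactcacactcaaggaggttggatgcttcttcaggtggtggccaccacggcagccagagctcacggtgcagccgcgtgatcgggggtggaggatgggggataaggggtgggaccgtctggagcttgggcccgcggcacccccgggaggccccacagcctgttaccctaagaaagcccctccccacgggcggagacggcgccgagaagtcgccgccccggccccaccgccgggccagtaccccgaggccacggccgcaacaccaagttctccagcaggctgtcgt
Fabp6, chr11:43601513-43601812, minus strand: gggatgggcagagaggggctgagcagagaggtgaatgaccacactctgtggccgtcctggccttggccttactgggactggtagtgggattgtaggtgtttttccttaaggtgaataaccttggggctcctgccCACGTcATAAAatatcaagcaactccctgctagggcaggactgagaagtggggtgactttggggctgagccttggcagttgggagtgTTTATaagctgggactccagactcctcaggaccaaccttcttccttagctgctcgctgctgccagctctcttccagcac

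The S100g promoter held 2 half-site matches and 1 TTTAT match. The Fabp6 promoter held 2 TTTAT matches and 1 hypoxia core match, and the Cybrd1 promoter held none of the 4 motifs. Of 32851 mouse promoters of this length, 11.2% held AGATAA, 40.0% TTTAT, 19.6% ACGTG and 16.3% AGGTCA. The TTTAT motif read backwards also matches part of a TATA box.

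The Tg library holds 54013005 unique molecular identifiers (UMIs) in 6270 barcodes and the FMTg library 49805718 in 6382, and 14 barcode sequences occur in both. After filters that included a limit of 25% mitochondrial UMIs, 2913 Tg and 2675 FMTg cells were kept. Mdm2, the targeted gene, stood at 106 CPM (UMIs per 1000000 UMIs of the class) in Tg and at 204 in FMTg absorptive cells (log2 ratio 0.95, 0.85 to 1.04), although a 3′ tag can fall outside the deleted sequence and so does not check the labels.

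Absorptive cells were taken as clusters 3 and 4 of the kept cells, 403 in Tg and 441 in FMTg. All 12 enterocyte markers were detected in each. Cluster 3 (193 Tg and 351 FMTg cells) is enterocyte-like, whereas cluster 4 (210 and 90) stays unnamed because the colonocyte marker Car4 is among its 10 leading genes. At a coarser resolution they formed 1 enterocyte-like cluster of 403 and 442 cells. No member was used for clustering. Most Tg absorptive cells are in cluster 4 and most FMTg ones in cluster 3. Ratios of Gata4, Cybrd1, Slc40a1, S100g, Slc51a and Slc51b are therefore given for both clusters together and for each. Ratios of all other genes under the limit are for both clusters together and include this difference in cluster mix. Among these, Apoa4 and Slc34a2 are leading genes of cluster 3 and Slc11a2 of cluster 4. Median depth was 30640 UMIs per cell in Tg and 19940 in FMTg. Levels are CPM of the summed cells, not divided by gene length, and are compared between libraries and cells, not between genes.

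Both libraries carried all 4 duodenal genes, and in both the strictly ileal pair was at or close to 0. In absorptive cells S100g and Slc40a1 were lower and Cybrd1 higher in FMTg, each by more than 1.5-fold, while Gata4, Slc51a and Slc51b differed by less than that. The duodenal genes thus did not share 1 direction: 1 of 4 was at least 1.5-fold higher in FMTg, against 16.0% of the 10466 genes with at least 20 UMIs, and 2 of 4 were at least 1.5-fold lower, against 11.6%. The median log2 ratio (FMTg over Tg) was -0.60 over the duodenal genes and -0.19 over the 3 measurable ileal genes, beside 0.06 over all genes. The duodenal median is the mean of Gata4 and Slc40a1, which differ in direction. The ileal median is the ratio of Slc10a2 alone, on 12 Tg and 8 FMTg UMIs. The duodenal median had the other sign, 0.26, in cluster 3 alone. Of the ileal genes none passed 1.5-fold in either direction, and Fabp6 had no UMI from which to form a ratio.

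**Figure D1:**
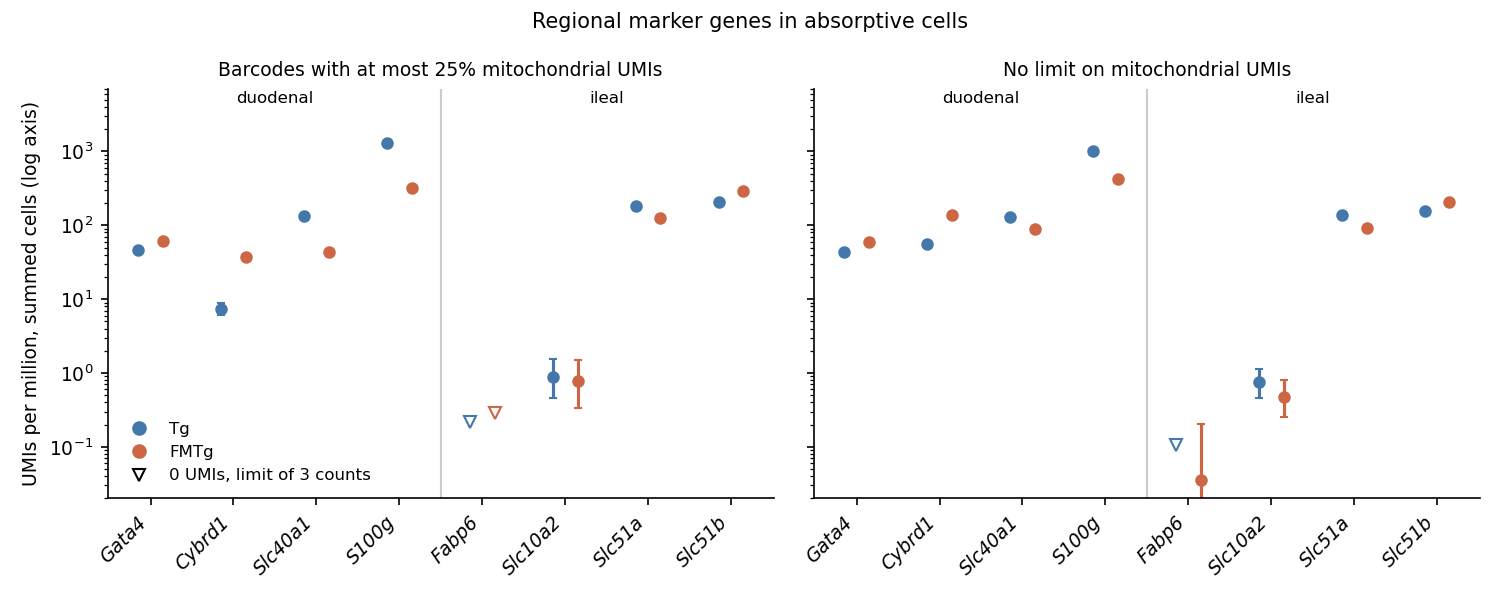
CPM (log axis) of the 8 genes in absorptive cells of the Tg and FMTg library, with the mitochondrial limit (left) and without it (right); bars are exact Poisson intervals at 95% and open triangles mark 0 UMIs at the limit of 3 counts. Fabp6 and Slc10a2 sit near the bottom in both libraries, and S100g is higher in Tg in both panels.

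Gata4 was present in both libraries, at levels less than 1.5-fold apart in the pooled absorptive cells but not in every cluster. Tg absorptive cells held 635 Gata4 UMIs (46.5 CPM, 43.0 to 50.3) and FMTg cells 642 (61.8 CPM, 57.1 to 66.7), a log2 ratio of 0.41 (0.25 to 0.57). The intervals of the levels did not overlap. The log2 ratio was 0.67 (0.44 to 0.90) in cluster 3 and -0.13 (-0.44 to 0.16) in cluster 4. At least 1 Gata4 UMI was found in 68.7% of Tg and 64.4% of FMTg absorptive cells, against 1.46% and 0.918% of T or NK-like cells, which should lack it and whose median depths were 4859 and 4561. When each cell was thinned to 2000 UMIs, which left out 3 Tg and 5 FMTg absorptive cells, the shares were 10.8% (7.89 to 14.2) and 14.7% (11.5 to 18.3). Of the other epithelial classes, crypt progenitor-like cells were at 51.5 CPM in Tg and 44.0 in FMTg, goblet-like cells at 15.4 and 33.4, and tuft-like cells at 15.1 and 16.8. Immune classes with any Gata4 UMI lay at or below 5.20 CPM. Without the mitochondrial limit, at a lower depth per cell, Gata4 was read in 35.9% of Tg and 41.9% of FMTg absorptive cells.

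The 2 iron genes differed in opposite directions. Cybrd1 had 101 UMIs in Tg absorptive cells (7.40 CPM, 6.03 to 8.99) and 386 in FMTg (37.1 CPM, 33.5 to 41.0), a log2 ratio of 2.33 (2.01 to 2.66). It was confined to few cells: 22 Tg cells and 31 FMTg cells held any UMI, which is 5.46% (3.45 to 8.15) and 7.03% (4.83 to 9.83) at unequal depth. Thinned to 2000 UMIs the shares were 1% (0.273 to 2.54) and 3.44% (1.94 to 5.61). Without the mitochondrial limit the thinned shares were 7.92% (6.75 to 9.21) and 12.8% (11.5 to 14.2), whose intervals do not overlap. A single FMTg cell held 71 of the UMIs, and the richest Tg cell 18. The log2 ratio was 3.25 (2.66 to 3.90) in cluster 3, on 25 and 332 UMIs, and 1.11 (0.58 to 1.63) in cluster 4. At a limit of 10% mitochondrial UMIs, where 60 Tg and 28 FMTg cells of another make-up were left, the estimate had the other sign, with an interval that includes 0 (-2.47, -8.18 to 1.17). T or NK-like cells had 3.85 CPM in Tg and 5.04 in FMTg, so the Tg level lay less than 2-fold above this background.

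Slc40a1 had 1802 UMIs in Tg absorptive cells (132 CPM, 126 to 138) and 449 in FMTg (43.2 CPM, 39.3 to 47.4), a log2 ratio of -1.61 (-1.76 to -1.46). It was read in 41.7% of Tg and 17.7% of FMTg absorptive cells, or 15% and 6.19% after thinning. The difference was not seen at this size within the clusters. Cluster 3 held 20.8 CPM in Tg and 18.7 in FMTg (log2 ratio -0.16, -0.52 to 0.21), and cluster 4 held 208 and 114 (-0.87, -1.05 to -0.69). Cluster 4, where Slc40a1 is high in both libraries, made up 52.1% of Tg but 20.4% of FMTg absorptive cells. Outside the epithelium, neutrophil-like cells carried 33 Slc40a1 UMIs in 23 of 53 Tg cells and 4 in 3 of 7 FMTg cells.

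S100g, the calcium carrier, had 17559 UMIs in Tg absorptive cells (1286 CPM) and 3273 in FMTg (315 CPM), a log2 ratio of -2.03 (-2.08 to -1.98). It was read in 56.8% of Tg and 20.9% of FMTg absorptive cells, and in 25% (20.8 to 29.5) and 10.3% (7.63 to 13.6) after thinning. Cells that should lack S100g also held it after thinning. In B-like cells the shares were 16.9% in Tg and 2.74% in FMTg, and in T or NK-like cells 9.54% and 2.30%. A share of absorptive cells with S100g is thus not a share of expressing cells. Its UMIs were concentrated: the richest 41 Tg and 45 FMTg cells held 79.6% and 98.1% of them. The log2 ratio was -0.69 (-0.88 to -0.51) in cluster 3 and -1.0 (-1.06 to -0.94) in cluster 4, in both smaller than in the pooled cells. Classes that should lack the gene had the same order. S100g stood at 53.1 CPM in Tg and 13.3 in FMTg T or NK-like cells (log2 ratio -1.99, -2.36 to -1.64) and at 83.3 and 17.6 in B-like cells. In FMTg tuft-like cells 459 of 472 S100g UMIs came from 1 cell.

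The ileal uptake genes were close to absent from both libraries. Fabp6 had 2 UMIs in the whole Tg library and 9 in the whole FMTg library (log2 ratio 2.29, 0.01 to 5.54), and none in the absorptive cells of either. Absence from 403 Tg and 441 FMTg cells allows up to 0.744% and 0.680% of them to hold a UMI, which does not limit the share of cells that express the gene at a lower level, and the limits on the level are 0.220 and 0.289 CPM. Both Tg UMIs, and 7 of the 9 in FMTg, were in crypt progenitor-like cells, where 2 of 10 Tg cells and 6 of 36 FMTg cells held 1 or more. Of these cells, 2 in Tg and 5 in FMTg also held Gata4. Within the crypt progenitor-like class Fabp6 was at 4.68 CPM in Tg and 3.71 in FMTg (log2 ratio -0.33, -2.73 to 2.97). The ratio over the whole libraries thus did not hold within that class. T or NK-like cells held no Fabp6 UMI.

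Slc10a2 had 28 UMIs in 24 Tg barcodes and 22 in 21 FMTg barcodes, never more than 2 in a barcode. In absorptive cells it had 12 UMIs in Tg (0.879 CPM, 0.454 to 1.54) and 8 in FMTg (0.770 CPM, 0.332 to 1.52), a log2 ratio of -0.19 (-1.69 to 1.22). T or NK-like cells had none, with limits of 0.462 and 0.488 CPM. A difference between the libraries was not detectable at this depth. Fgf15, the hormone that ileal enterocytes release in response to bile acids, had 0 UMIs in all barcodes of both libraries.

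The bile acid exporter was present in both. Slc51a had 2477 UMIs in Tg absorptive cells (181 CPM, 174 to 189) and 1311 in FMTg (126 CPM, 119 to 133), a log2 ratio of -0.53 (-0.62 to -0.43). Slc51b had 2793 (205 CPM, 197 to 212) and 3065 (295 CPM, 284 to 305), a log2 ratio of 0.53 (0.45 to 0.60). In the pooled cells the partner subunits thus differed in opposite directions, which did not hold in every set of cells. Slc51a was lower in FMTg in both clusters, with log2 ratios of -0.59 and -0.23, whereas Slc51b was higher in cluster 3 (0.57, 0.47 to 0.67) and lower in cluster 4 (-0.41, -0.57 to -0.24). Slc51a was read in 91.8% of Tg and 70.7% of FMTg absorptive cells and Slc51b in 95.0% and 87.5%, and after thinning Slc51a in 26.8% and 16.7% and Slc51b in 32.5% and 41.5%. Without the mitochondrial limit, at a lower depth per cell, the unthinned shares were 50.1% and 41.4% for Slc51a and 57.1% and 61.9% for Slc51b. Elsewhere Slc51a did not exceed 23.4 CPM and Slc51b did not exceed 54.0 CPM in any class of either library.

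**Figure D2:**
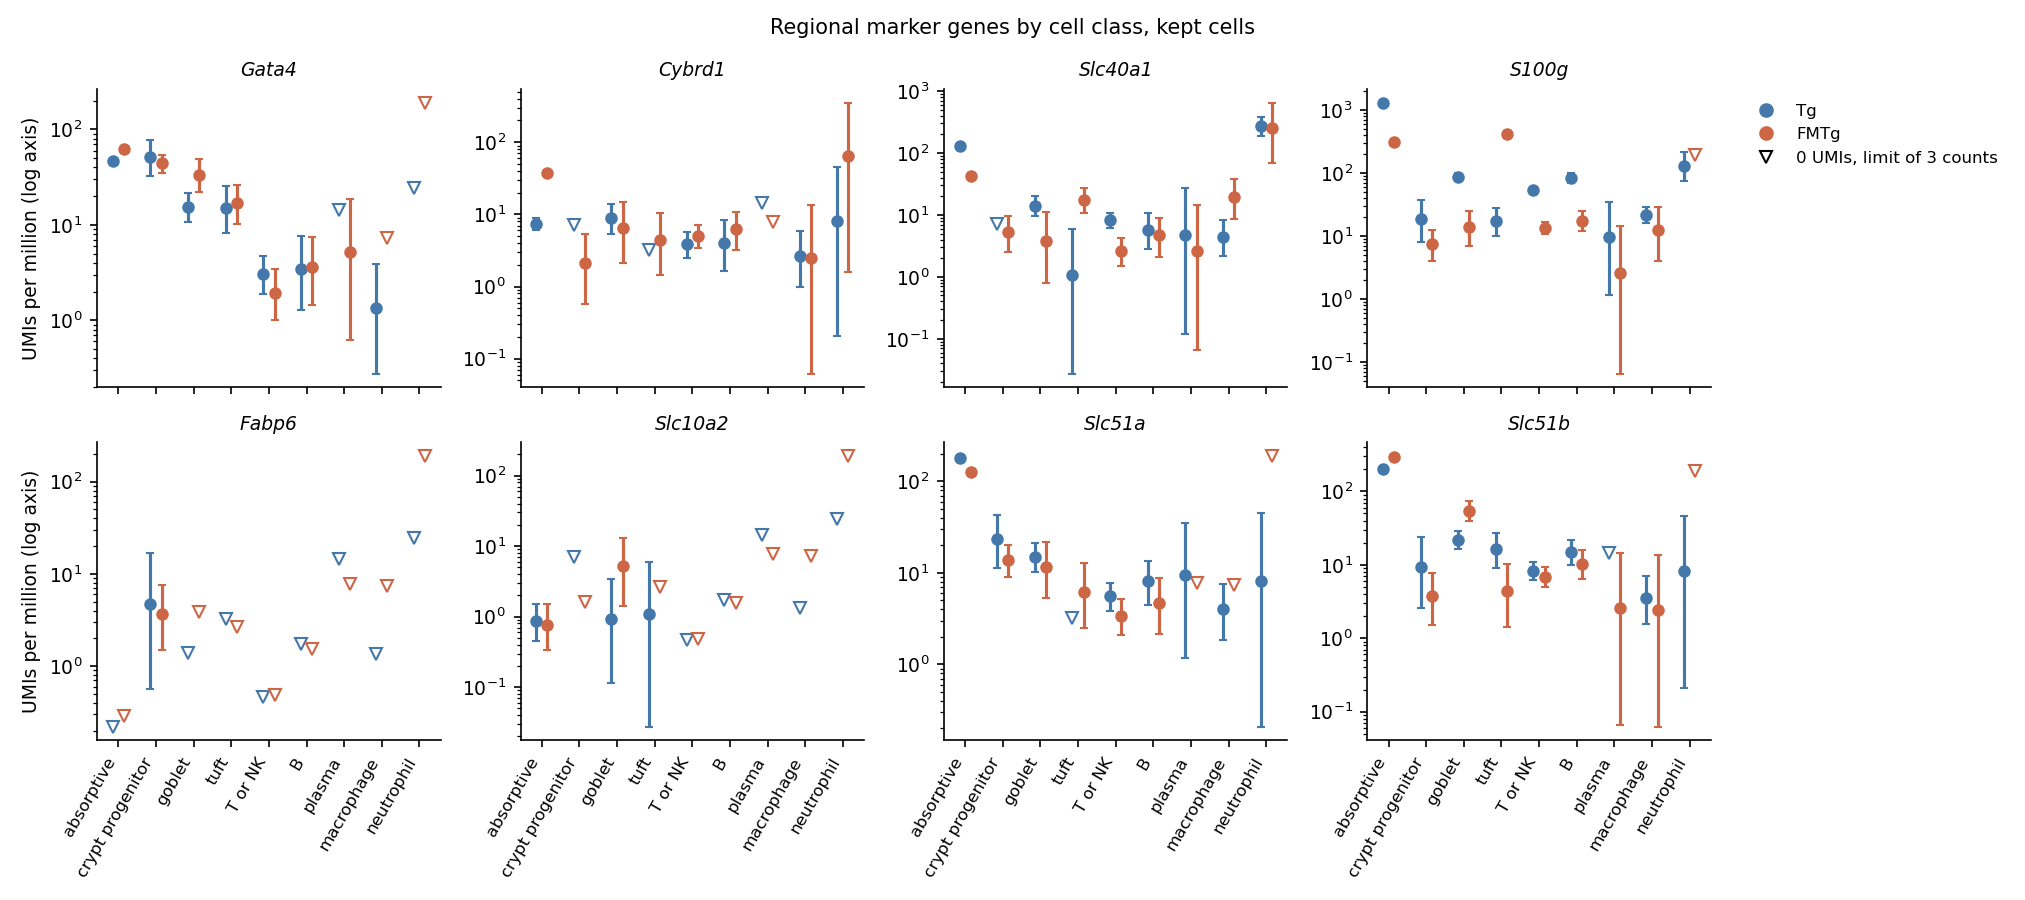
CPM (log axis) of each gene by cell class in kept cells of the Tg and FMTg library; bars are exact Poisson intervals at 95% and open triangles mark 0 UMIs at the limit of 3 counts, which is high in small classes such as the 7 FMTg neutrophil-like cells. Among classes with UMIs, Slc51a and Slc51b are highest in absorptive cells, and Fabp6 has UMIs in crypt progenitor-like cells alone.

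Taken per cell at equal depth, any of the 4 duodenal genes was read in 36.3% (31.5 to 41.2) of Tg and 25.7% (21.6 to 30.1) of FMTg absorptive cells. T or NK-like cells gave 12.1% and 3.81%. Any of the 4 ileal genes was read in 49.0% (44.0 to 54.0) and 52.1% (47.3 to 56.8), against 2.57% and 2.30% in T or NK-like cells, and nearly all of these cells were counted through Slc51a or Slc51b.

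Much of the signal of the duodenal genes lay in barcodes above the mitochondrial limit. They held 41.7% of all Tg UMIs and 47.3% of all FMTg UMIs, but 90.2% and 88.6% of the Cybrd1 UMIs. For S100g the shares were 38.4% in Tg and 69.2% in FMTg, and for Slc40a1 51.0% and 79.9%. Slc51b was at 37.3% and 46.6%, near the library as a whole. The limit therefore removed S100g and Slc40a1 UMIs unequally from the libraries, and all values were computed again without it.

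Without the limit there were 2006 Tg and 2383 FMTg absorptive cells in 5 enterocyte-like clusters, at a median of 8529 and 8369 UMIs per cell, of which mitochondrial UMIs took a median of 48.2% and 38.3%. The part of that difference in the ratios below was not tested. S100g was at 1004 CPM in Tg against 418 in FMTg, a log2 ratio of -1.26 (-1.30 to -1.23). Slc40a1 was at 131 and 90.1 CPM, a log2 ratio of -0.54 (-0.61 to -0.47) in place of -1.61. Cybrd1 was at 56.0 and 139 CPM (1.31, 1.23 to 1.40). Gata4 (0.46), Slc51a (-0.58) and Slc51b (0.40) were close to their values under the limit. Fabp6 had no UMI in Tg and 1 in FMTg, and Slc10a2 had 21 and 13. The duodenal median was -0.04 and the ileal median -0.58, beside 0.03 over all genes. The ileal median is here the ratio of Slc51a, whereas under the limit it was that of Slc10a2. In these cells 1 of 4 duodenal genes was at least 1.5-fold higher and 1 of 4 at least 1.5-fold lower, against 13.0% and 12.8% of 11414 genes, and 1 of 3 ileal genes, Slc10a2, was lower on 34 UMIs in all.

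A cluster led by the duodenal genes made up shares of both libraries whose intervals overlap. Cluster 2 of the cells without the limit, formed with no member among the clustering genes, was led by Akp3, Slc40a1, Cybrd1, Sult6b2 and S100g and included Tmprss15 (enteropeptidase, a duodenal brush border protease) among its 10 leading genes. It held 484 Tg cells, 24.1% (22.3 to 26.1) of the absorptive cells, and 543 FMTg cells, 22.8% (21.1 to 24.5). The intervals of the other 4 clusters did not overlap: cluster 3 made up 15.3% of Tg and 23.6% of FMTg absorptive cells, cluster 5 7.93% and 28.6%, cluster 6 28.0% and 11.3%, and cluster 8 24.6% and 13.7%. All these shares leave out cluster 4 of the cells without the limit, with 584 Tg and 263 FMTg cells. It scored highest on the enterocyte list but was shallow. Shares that include it were not computed, and they depend on leaving it out. Inside cluster 2, mitochondrial UMIs, which are part of the CPM total, took a median of 52.9% in Tg and 44.7% in FMTg cells. The part of that difference in the ratios of this cluster was not tested. Slc40a1 was there at 414 CPM in Tg and 411 in FMTg (log2 ratio -0.01, -0.10 to 0.08). S100g was at 2325 and 1693 CPM (-0.46, -0.50 to -0.42), Gata4 at 52.4 and 72.3 (0.46) and Cybrd1 at 219 and 478 (1.13, 1.02 to 1.24). Tmprss15 was at 359 CPM in both, and Pdx1, a transcription factor of the proximal duodenum, at 58.1 and 62.4. Cybrd1 was read in 34.7% of these Tg cells and 54.0% of these FMTg cells, and Slc40a1 in 75.8% and 75.3%.

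The deficits of S100g and Slc40a1 lay mainly in other cells. In cluster 8, led by Reg3g, Reg3b and Reg1 (secreted antimicrobial and regenerative lectins), Slc40a1 was at 104 CPM in Tg and 20.3 in FMTg (log2 ratio -2.35, -2.59 to -2.12) and S100g at 1072 and 266 (-2.01). In cluster 3 of the same cells S100g was at 566 and 131 CPM (-2.11), while Cybrd1 was at 242 and 268 (0.15, -0.003 to 0.30). Cluster 5, with 159 Tg and 682 FMTg cells mostly of 1 library, held 60.7 and 28.4 CPM of S100g, and cluster 6 held 64.4 and 51.9. The S100g ratio was thus below 0 in each of the 5 clusters, with the interval of cluster 6 reaching 0.04. In Tg, S100g in clusters 5 and 6 lay below the 83.3 CPM of kept B-like cells, which should lack it. In FMTg it lay above their 17.6 CPM. The part of such background in the ratios of clusters 5 and 6 was not tested. The interval of Slc40a1 lay below 0 in all but cluster 2. Gata4 was more than 1.5-fold higher in FMTg in cluster 3 (0.82, 0.47 to 1.20) and in cluster 5 (1.01, 0.62 to 1.43). It lay within 1.5-fold in cluster 2 (0.46), cluster 6 (-0.08) and cluster 8 (0.05).

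**Figure D3:**
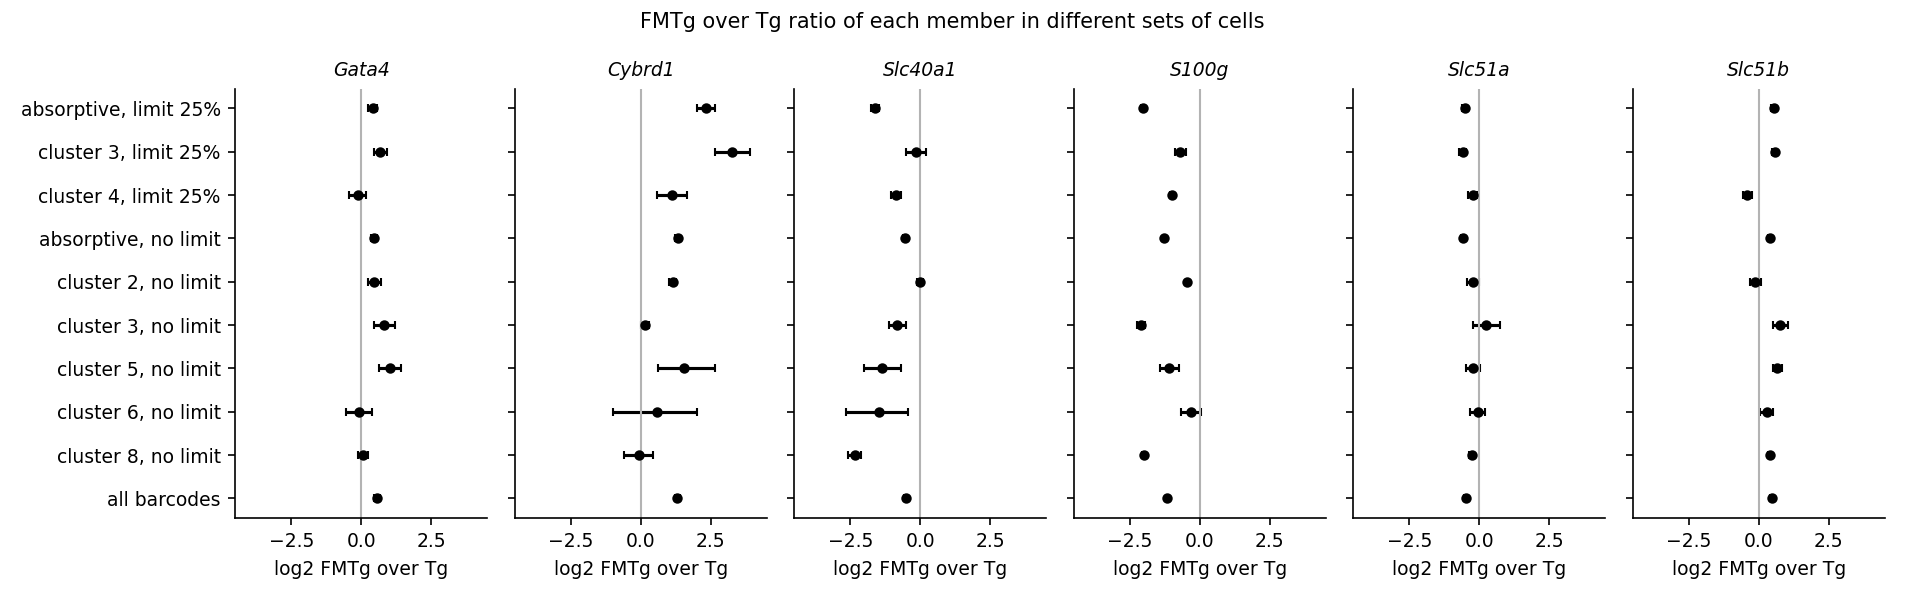
The log2 ratio FMTg over Tg of 6 members in absorptive cells, in single clusters and in all barcodes; bars are exact conditional binomial intervals at 95%, many of them narrower than the point. Slc40a1 runs from -2.35 in cluster 8 to -0.01 in cluster 2 of the cells without the limit, and S100g lies below 0 throughout.

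S100g and Slc40a1 were highest in the cells that held Cybrd1, and Gata4 differed less between cells. Among the absorptive cells without the limit, 178 of 2006 Tg cells (8.87%) and 357 of 2383 FMTg cells (15%) held 2 or more Cybrd1 UMIs. These cells were defined by Cybrd1, whose own level is therefore not a result. S100g was at 3926 CPM in them in Tg and 1666 in FMTg, against 722 and 195 in cells with no Cybrd1 UMI. Slc40a1 was at 521 and 427 CPM against 93.1 and 33.0. Gata4 was at 64.6 and 75.4 CPM against 41.9 and 57.3, and was read in 41.0% and 49.9% of the Cybrd1 cells against 35.3% and 40.4% of those without. Slc51b went the other way, with 99.3 and 110 CPM against 164 and 227, as did Slc51a. Lct (lactase) was at 96.3 and 102 CPM against 317 and 323. Median depths were alike, 7904 and 8373 UMIs in the Cybrd1 cells and 8637 and 8403 in those without.

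**Figure D4:**
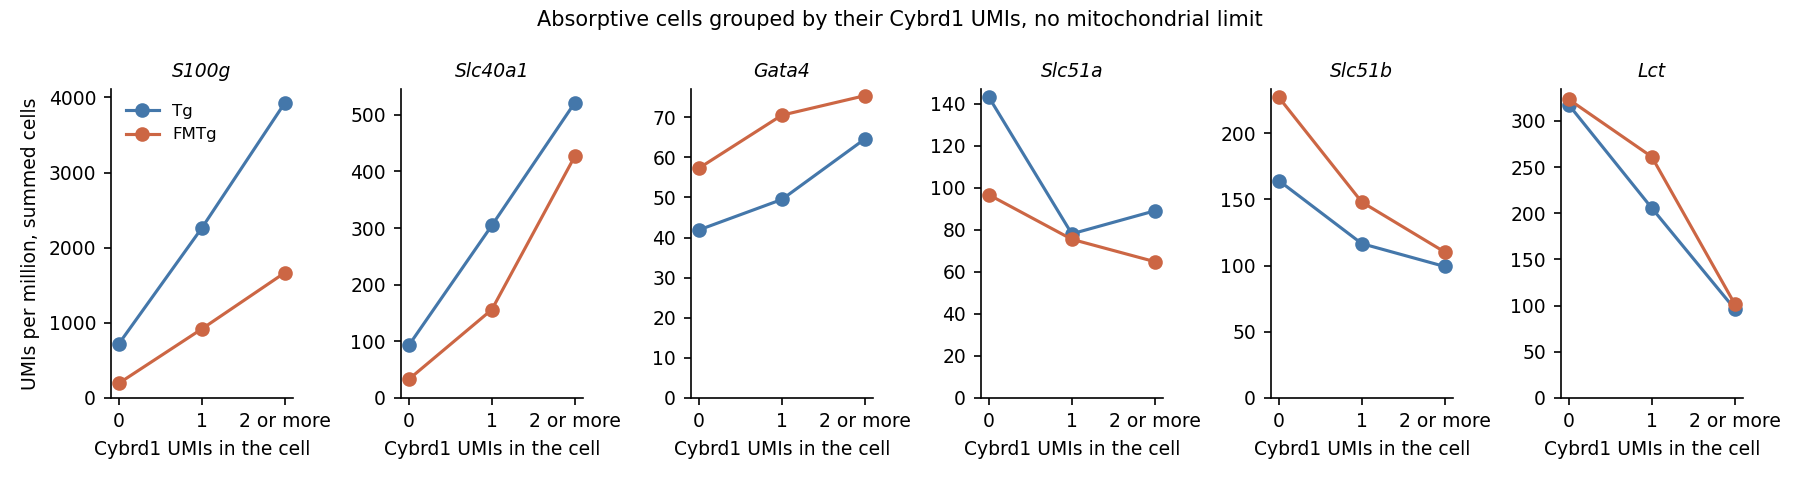
CPM of S100g, Slc40a1, Gata4, Slc51a, Slc51b and Lct in absorptive cells with 0, 1 or 2 or more Cybrd1 UMIs, no mitochondrial limit, for the Tg and FMTg library; points are sums over cells, without intervals. S100g and Slc40a1 are higher and Slc51b and Lct lower in cells with more Cybrd1 UMIs in both libraries.

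Likeness over cells gave part of the same grouping. Over 400 Tg and 436 FMTg absorptive cells thinned to 2000 UMIs, the 5 genes whose log2(UMI + 1) followed S100g most closely, ranked by the lower of both Pearson correlations, were Reg1 (r of 0.54 in Tg and 0.57 in FMTg), Slc40a1 (0.54 and 0.56), Sult6b2 (0.64 and 0.50), Fth1 (0.66 and 0.50) and Papss2 (0.49 and 0.39). Without the limit, over 1932 and 2274 cells, the 5 most like S100g were Fth1, Slc40a1, Prap1, Papss2 and Sult6b2. Cybrd1 was thus not among the 5 with or without the limit. In the cells without the limit the gene most like Cybrd1 was S100g (0.39 and 0.43). Next came Tm4sf4, Akp3, Atp2b1 and Ctse, so Slc40a1 was not among the 5 most like Cybrd1. These are descriptions across cells that share a library. Fabp6 had no UMI in absorptive cells, so no likeness to it could be computed.

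Of 15 other genes of iron handling measured in absorptive cells, 3 were at least 1.5-fold lower in FMTg and 1 higher. Of all measured genes 11.6% were lower and 16.0% higher by that fold. The median log2 ratio of the 15 was -0.25. Slc11a2 (DMT1), which takes up the iron that Cybrd1 reduces, counted 2820 UMIs in Tg against 350 in FMTg, a log2 ratio of -2.62 (-2.78 to -2.46), and Tfrc, the transferrin receptor, 373 and 123 (-1.21). Fth1, the heavy chain of the iron store ferritin, was at 17722 and 8786 CPM (-1.01). Ftl1, its light chain (-0.25), Epas1, the hypoxia factor that induces iron uptake genes (-0.53), Heph, the ferroxidase that works with Slc40a1 (0.09), and the chaperone Pcbp2 (0.08) lay within 1.5-fold. The gene past 1.5-fold upward was Hmox1, on 10 and 12 UMIs, and is named after its value was seen. Slc11a2 was lower in FMTg also inside cluster 2 of the cells without the limit, at 328 CPM in Tg and 89.0 in FMTg (-1.88). Slc40a1 and Fth1 (0.07) were level there in CPM.

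Of the genes of calcium and vitamin D handling, 6 of 9 were measured, 1 at least 1.5-fold higher and 2 lower. The shares over all measured genes were 16.0% and 11.6%. The median of the 6 was 0.36. Atp2b1, the pump that moves calcium from the cell to the blood, was lower (4143 and 1382 UMIs, log2 ratio -1.19), as was Vdr, the vitamin D receptor (2629 and 1238, -0.69). Without the limit neither passed 1.5-fold, at -0.55 and -0.50. Trpv6, the apical calcium channel and the gene past the fold upward, had 14 and 29 UMIs, and is named after its value was seen. Rxra, the partner of Vdr (0.31), and the claudins Cldn2 (0.53) and Cldn12 (0.40) lay within 1.5-fold.

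Of the genes of the bile acid response, 7 of 10 were measured, 1 at least 1.5-fold higher and 2 lower. The shares over all measured genes were 16.0% and 11.6%. The median of the 7 was -0.19. Nr0b2 (SHP), a target of the bile acid receptor, had 123 Tg and 20 FMTg UMIs (log2 ratio -2.23, -2.99 to -1.54). The basolateral transporter Abcc3 was at -0.72 and the apical Abcc2 at -0.57. Hnf4a, a nuclear receptor of enterocyte identity, had 2975 and 4619 UMIs (1.03). Nr1h4, which encodes the bile acid receptor FXR itself, had 266 and 189 UMIs (-0.10).

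Of 20 other proximal enterocyte genes, 4 were at least 1.5-fold higher in FMTg and 7 lower, against 16.0% and 11.6% of all genes. The median of the 20 was 0.01. Apoa4, an apolipoprotein of chylomicrons, was higher (1.43), Slc2a2, the basolateral glucose transporter, lower (-1.33), and Aldh1a1 (-1.17) and Cyp2c66 (-1.84) lower as well. Among the most abundant, Rbp2, which binds retinol (-0.34), and Fabp1, which binds fatty acids (-0.38), lay within 1.5-fold. Of 18 other distal enterocyte genes measured, 7 were higher and none lower, against 16.0% and 11.6% of all genes, with a median of 0.27. The 7 included Slc34a2, a phosphate transporter (1.27), Pmp22 (1.21), the mucin Muc3 (0.89) and the protease Mep1a (0.81). Clec2h (-0.08), Phgr1 (-0.11) and Enpep (-0.46) were not past the fold. Without the limit 3 of these 18 were higher and none lower, against 13.0% and 12.8% of all genes, and the median was 0.02. Of the 20 proximal genes, 3 were then higher and 7 lower, against the same shares, and the median was -0.13. Of 9 regional transcription factors measured, 1 was lower, Pdx1 (440 and 166 UMIs, -1.01), and none was higher. The shares over all genes were 11.6% and 16.0%. Gata6 (0.02), Cdx2 (0.20), Onecut2 (0.18), Maf (-0.39) and Gata5 (0.58) stayed within 1.5-fold. Without the limit Pdx1 (-0.60) was again the 1 lower and none was higher, against 12.8% and 13.0% of all genes.

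**Figure D5:**
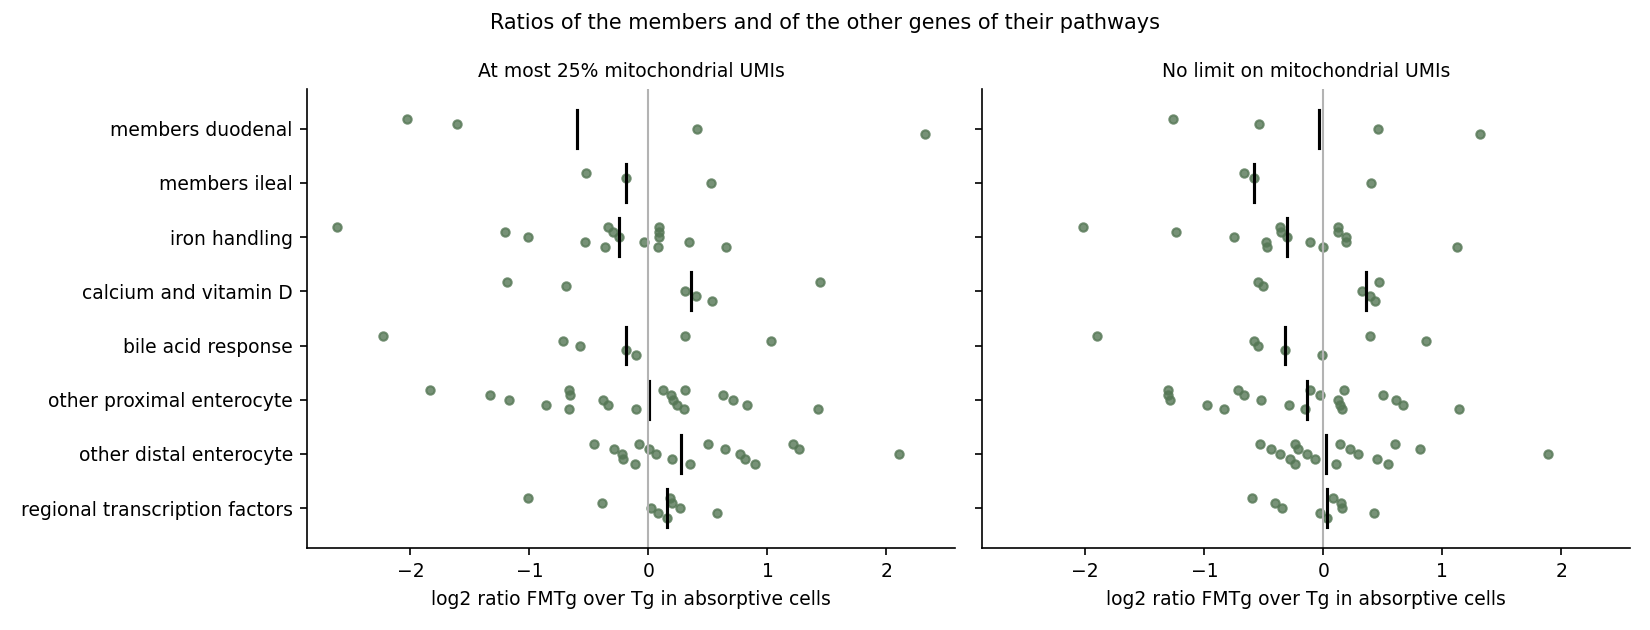
The log2 ratio FMTg over Tg in absorptive cells of each measured gene (points) by list, with the median of the list as a black line, with the mitochondrial limit (left) and without it (right). The median of the duodenal members is -0.60 on the left and -0.04 on the right, and that of the other distal genes 0.27 and 0.02.

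The sources used here do not say which length of intestine was dissected from each animal, and genotype, animal, depth, mitochondrial share and dissection cannot be told apart with 1 library each.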

How the data were processed

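Single-cell suspensions of small intestine were captured with the 10x Genomics Chromium 3′ protocol, per the labels' protocols. Both deposited tables hold whole-number UMI counts, with no normalization by the authors. Per the submitters' processing notes, CASAVA 1.8.1 and Cell Ranger 3.0 were run on mm10; no annotation release was found in the sources used here.

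The members, gene lists and alternatives were chosen with earlier results of these data known. A kept barcode had 500 or more UMIs, 300 or more genes and no more than 25% mitochondrial UMIs, and doublets removed by score at 0.8% per 1000 barcodes (154 Tg and 144 FMTg). Cells of both libraries were clustered together (scanpy 1.11.5, leidenalg 0.10.2; 2000 variable genes, 30 components, 20 neighbours, resolution 1). Regional lists with all members, p53, cycle, stress, interferon, ribosomal and mitochondrial genes were left out of the variable genes. Clusters were named from 21 marker lists. Absorptive cells are clusters that score highest on the enterocyte list, are not shallow (median depth far under that of their library), and have at most 1 more leading gene of another list than of their own; this rule was set after the clusters were seen. Cluster 5 (200 Tg and 91 FMTg cells, led by Gip and Cck) was shallow and left out.

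Counts were summed per library and class and scaled to the class total. Sums have exact Poisson, ratios exact conditional binomial and shares exact Clopper-Pearson intervals at 95%, which cover counting error only. No paired or replicate test was possible. A gene was measured with at least 20 UMIs over both libraries and called past 1.5-fold. A count of 0 allows up to 3 counts. Genes named beside the members are, per list, the 4 highest in UMIs and the 4 furthest from 0 in log2 ratio at 50 UMIs or more, and the 5 most like S100g. Nr1h4, Fgf15, Lct, Tmprss15, Hmox1, Trpv6 and the genes most like Cybrd1 fall outside this rule and were named after their values were seen. Of the genes so chosen, 1 is left out of the text. Of 31053 symbols 30416 matched 1 gene of GENCODE vM21. Alternatives were 3 other scalings (edgeR 4.0.16 TMM, DESeq2 1.42.0 size factors, totals without abundant genes), filters, clustering, thinning and weights. Ratios were tested on simulated counts. Scripts ran in R 4.3.3 and Python 3.11.15 (pandas 2.3.3, scipy 1.17.1, numpy 2.4.6), with seed 1.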

Additional observations from a re-analysis of the deposited data

Results flagged for a closer look

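Slc51b went in opposite directions in the absorptive clusters: its log2 ratio of FMTg over Tg was 0.57 in cluster 3 and -0.41 in cluster 4. With 1 library per group the difference between the clusters was not tested.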

How the results depend on the processing

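No paired analysis was possible because each group has 1 library. The log2 ratios of S100g (-4.40 to -0.46), Slc40a1 (-2.85 to -0.01) and Slc51a (-1.57 to -0.22) were below 0 under each of the 15 alternatives, but the interval of Slc40a1 included 0 in cluster 3 alone (-0.16) and in cluster 2 without the limit (-0.01). Cybrd1 kept its sign in 14 of 15, Gata4 in 13 (-0.13 to 0.67) and Slc51b in 12 (-2.88 to 0.57). At the 10% mitochondrial limit the class was another set of cells, 1 cluster of 60 Tg and 28 FMTg cells with a median depth of 3619. It was led by Dmbt1, Gpx2 and Cps1 and held 1 and 3 Fabp6 UMIs. There Cybrd1 was at -2.47 (-8.18 to 1.17), Slc51b at -2.88, and the median log2 ratio was -2.85 for the duodenal and -2.22 for the ileal genes. The duodenal median was -0.14 at a 50% limit, -0.040 with no limit and -0.39 with equal weight per cell. In sets of cells added after the data were seen it changed sign, to 0.26 in cluster 3 alone, 0.018 in all barcodes and 0.23 in cluster 2 without the limit. The cause of these shifts was not tested. TMM, DESeq2 size factors and totals without mitochondrial and abundant genes moved the median of all genes by less than 0.1. They gave duodenal medians of -0.70, -0.69 and -0.66 and ileal medians of -0.29, -0.28 and -0.25. Both stayed within the intervals used, which is a weak check. The ileal interval is that of Slc10a2 alone (-1.69 to 1.22), too wide for such shifts to leave. The duodenal interval averages the limits of Gata4 and Slc40a1.

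The share of cells with a duodenal gene was 53.9% in Tg and 19.2% in FMTg at the 10% limit. It was 40.2% and 32.5% at 50%, and 39.2% and 34.5% with no limit. Thinning to 1000 UMIs gave 29.8% and 17.3%, and asking for 2 UMIs or more gave 22.8% and 9.63%. The share with an ileal gene was 35.9% in Tg and 11.5% in FMTg at the 10% limit, 42.0% and 37.6% at 50%, 32.1% and 34.5% with no limit, 30.02% and 29.1% at 1000 UMIs, and 18.5% and 19.5% at 2 UMIs or more. Dropping the minimum of 20 UMIs, with 1 UMI in each library still required, added no gene to the iron, calcium, bile acid and proximal lists. Their medians could thus not change. The distal median moved from 0.27 to 0.35 and that of the transcription factors from 0.16 to 0.12, within the intervals of their middle genes. Leaving out clusters over 80% from 1 library changed no cell of clusters 3 and 4, so it gave no value. Ratios of Fabp6 and Slc10a2 are limited by their few UMIs.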
